A study of Mus musculus with 12 samples.

Results

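Nuclear receptors are transcription factors of which many are switched on by small lipid-soluble ligands, and 34 of their genes, listed by symbol, were followed in fetal mouse liver with and without the fatty acid receptor PPARα, encoded by *Ppara*. Each symbol was matched to the probesets that carry only that symbol, and 32 of the 34 genes were measured, of 19938 genes in all, with 1 probeset each. *Nr1h2* and *Nr2e3* were not analysed here. The study asked which genes depend on PPARα just before birth. It compared whole livers of 6 *Ppara*-/- fetuses, which carry the null allele in all cells, with those of 6 *Ppara*+/+ fetuses at embryonic day E19.5. The fetuses were delivered by cesarean section from mothers and fathers heterozygous for *Ppara*, with no treatment in either group. The strain is SV129 in the labels but C57BL/6 in the methods. One Affymetrix gene array was hybridized per liver, and all values below are log2 signals made by the authors with RMA, so that a difference of 1 is a doubling. Signals of different probesets are not comparable, and precision depends on there being 6 arrays per genotype.

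A typical nuclear receptor holds a DNA-binding domain of zinc fingers and a domain that binds ligand and exchanges corepressors for coactivators. Many liver receptors, PPARα included, bind DNA as heterodimers with a retinoid X receptor, at pairs of the half-site AGGTCA or its variants. In the liver they sense oxysterols, bile acids, drugs, vitamins and hormones, and the genes they switch on handle sterols, bile acids and foreign compounds.

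The groups carried features beside genotype that bear on every value here. The transcript of the targeted gene was 9.83 ± 0.09 in *Ppara*-/- livers and 10.84 ± 0.10 in *Ppara*+/+ livers (SD, n = 6 each), and no liver went against its label. Whether the probeset lies in the disrupted part of the gene is not known here. By *Xist* and Y-linked transcripts 1 of the 6 *Ppara*-/- livers was male, against 3 of the 6 *Ppara*+/+ livers. The labels also give each animal a number, and *Ppara*-/- mouse 1 and *Ppara*+/+ mice 1 to 4 hold the 5 lowest, followed by *Ppara*-/- mice 2 to 6 and then *Ppara*+/+ mice 5 and 6. On the first principal component, with 41.9% of the variance, *Ppara*-/- mouse 1 (-1.9) and *Ppara*+/+ mouse 6 (3.3) lay where the genotypes overlapped. The 7 measured hepatocyte markers averaged 13.23 to 13.26 in *Ppara*-/- livers and 13.22 to 13.28 in *Ppara*+/+ livers, and 0 of them was called. All lay at or above the 99.6th percentile of mean signal, where an array may show changes poorly, which was not tested. Litter is not named in the labels. The methods state that the 6 samples of each genotype were picked at random from 3 litters. The p-values below do not allow for livers of shared litters.

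Of the 32 receptor genes, 6 (18.8%) differed between the genotypes, where 7.24% of all genes did (limma, adjusted p under 0.05 over all genes). The transcripts for the bile acid receptor FXR (*Nr1h4*), the oxysterol receptor LXRα (*Nr1h3*), estrogen-related receptor γ (*Esrrg*), the mineralocorticoid receptor (*Nr3c2*) and retinoic acid receptor β (*Rarb*) were lower in *Ppara*-/- livers, and that for the orphan receptor RORα (*Rora*) was higher. The share lowered was 15.6% of the receptors against 3.82% of all genes, and the share raised was 3.12% against 3.42%. The sizes were modest, between 1.22-fold and 1.27-fold, near the median of 1.24-fold over all called genes in either direction. In 3 of the 6 the genotypes did not overlap at all. For *Esrrg* and *Nr1h4* the highest *Ppara*-/- liver was under the lowest *Ppara*+/+ liver, an arrangement found in 2.29% of all genes, and for *Rora* the reverse held, an arrangement found in 1.3%. Across the 32 receptors the median difference was -0.02, against 0.01 over all genes, with 18 negative and 14 positive values. In whole liver, fewer cells of a type and less RNA per cell cannot be told apart.

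**Figure D1:**
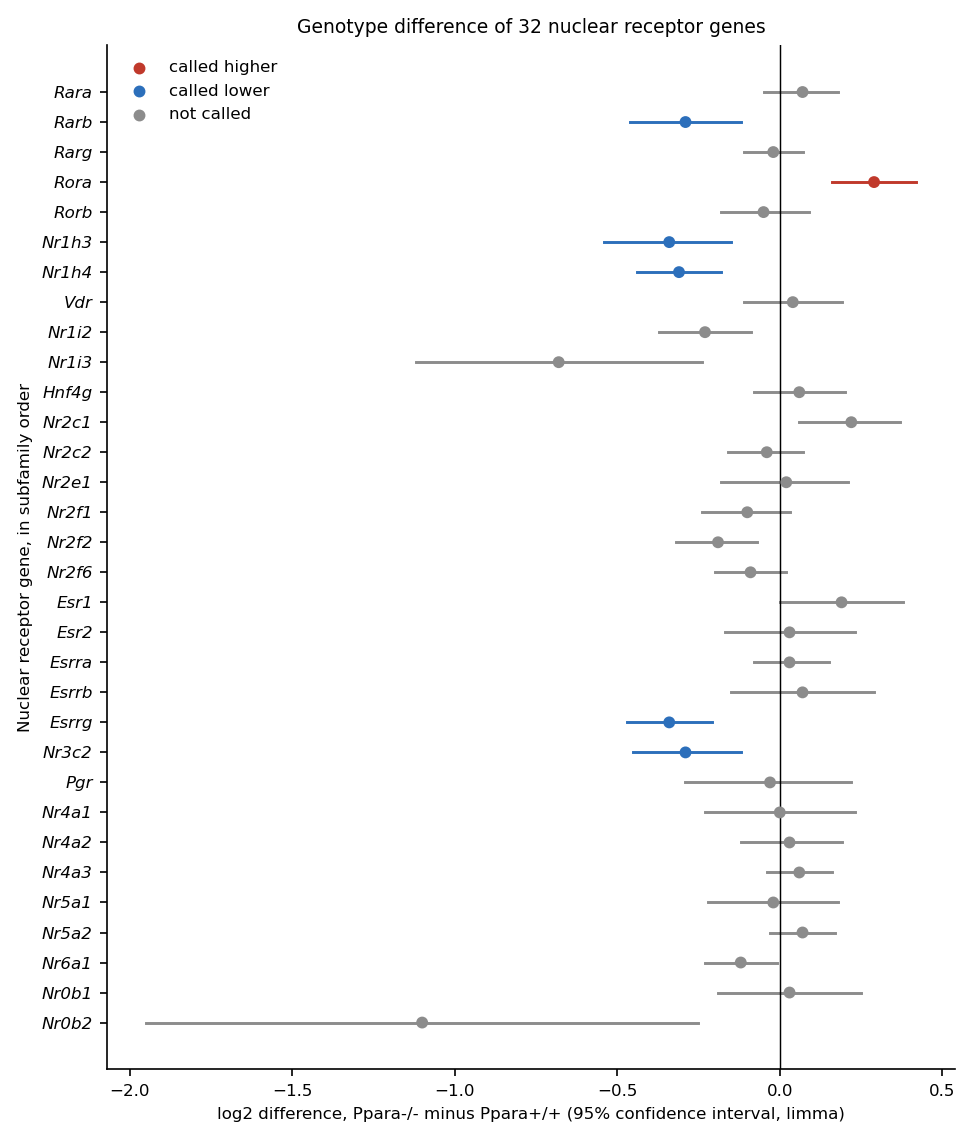
Difference in log2 signal (*Ppara*-/- minus *Ppara*+/+, x axis) with its 95% confidence interval from limma for 32 receptor genes in subfamily order (y axis). The 5 lower genes lie between -0.34 and -0.29, *Rora* lies at 0.29, and the wide intervals of *Nr0b2* and *Nr1i3* come with point estimates of -1.10 and -0.68 that were not called.

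FXR, encoded by *Nr1h4*, is activated by bile acids and restrains their synthesis. The lowest, median and highest *Nr1h4* signals were 9.23, 9.40 and 9.50 in *Ppara*-/- livers, against 9.51, 9.72 and 9.82 in *Ppara*+/+ livers. The highest *Ppara*-/- liver, mouse 1, lay just under the lowest *Ppara*+/+ liver, mouse 6. The means were 9.39 ± 0.10 and 9.70 ± 0.12 (SD, n = 6 each), a log2 difference of -0.31 (SE 0.06, adjusted p = 0.00817, limma).

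The small heterodimer partner SHP, encoded by *Nr0b2*, is a receptor without a DNA-binding domain that FXR induces and that represses bile acid synthesis. Its signal spread more than that of any other receptor listed, with SDs of 0.81 in *Ppara*-/- livers and 0.83 in *Ppara*+/+ livers. It read 8.49, 6.81, 7.15, 6.09, 6.61 and 7.05 in *Ppara*-/- mice 1 to 6, and 8.49, 8.82, 8.58, 8.74, 7.32 and 6.85 in *Ppara*+/+ mice 1 to 6. *Ppara*-/- mouse 1 thus stood with the high *Ppara*+/+ livers, and *Ppara*+/+ mice 5 and 6 stood among or near the low *Ppara*-/- livers. The difference of -1.10 (SE 0.40, 95% interval -1.95 to -0.25), 2.14-fold at the point estimate, did not pass the threshold (adjusted p = 0.115, limma). It passed without *Ppara*-/- mouse 1 (-1.39, adjusted p = 0.0162) and without *Ppara*+/+ mouse 6 (-1.35, adjusted p = 0.0314).

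LXRα, encoded by *Nr1h3*, responds to oxysterols and raises genes of cholesterol efflux and lipid synthesis. *Nr1h3* read 8.32, 8.45 and 8.71 (lowest, median, highest) in *Ppara*-/- livers, against 8.58, 8.85 and 9.09 in *Ppara*+/+ livers. The groups overlapped through *Ppara*-/- mouse 1 and *Ppara*+/+ mice 5 and 6. The difference was -0.34 (SE 0.09, adjusted p = 0.0326, limma). The call was lost when any 1 of *Ppara*-/- mice 2, 4, 5 and 6 or *Ppara*+/+ mice 1 to 4 was left out (adjusted p between 0.0609 and 0.0801), and with a sex score as covariate (-0.27, adjusted p = 0.0915). With an erythroid marker score the difference stayed at -0.34, with an adjusted p of 0.057.

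**Figure D2:**
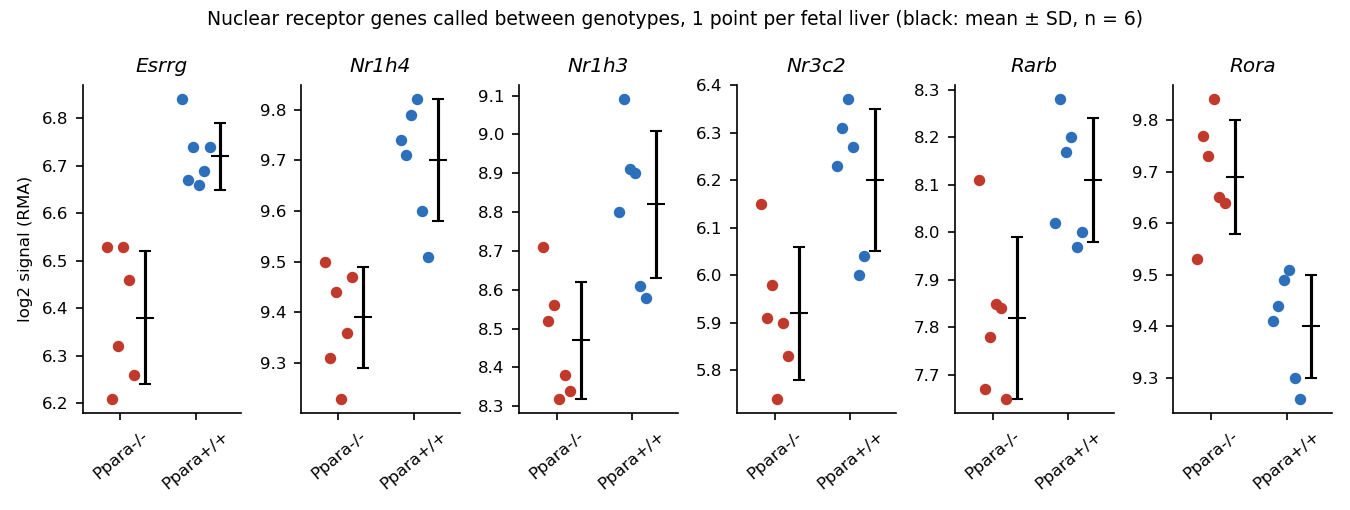
Log2 signal (y axis, its own scale in each panel) of the 6 called receptor genes in *Ppara*-/- and *Ppara*+/+ livers (x axis), 1 point per liver, with the mean and SD in black. *Esrrg*, *Nr1h4* and *Rora* show no overlap between genotypes, whereas in *Nr1h3*, *Nr3c2* and *Rarb* at least 1 liver lies within the range of the other genotype.

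The promoters of 4 receptor genes are shown because 3 of these genes separated the genotypes without overlap and the remaining one, *Nr0b2*, is the classical FXR-induced gene. They run from 250 bases before to 50 after the most upstream start of the gene, from RefSeq on GRCm38.p6, 5′ to 3′ on the strand of the gene. Capitals mark the half-site AGGTCA and its variants GGGTCA or else AGTTCA, on either strand. *Nr1h4* lies at chr10:89506609-89506908 (minus strand), *Nr0b2* at chr4:133553126-133553425 (plus strand), *Rora* at chr9:68653536-68653835 (plus strand), and *Esrrg*, with 4 annotated starts, at chr1:187608756-187609055 (plus strand).
Nr1h4: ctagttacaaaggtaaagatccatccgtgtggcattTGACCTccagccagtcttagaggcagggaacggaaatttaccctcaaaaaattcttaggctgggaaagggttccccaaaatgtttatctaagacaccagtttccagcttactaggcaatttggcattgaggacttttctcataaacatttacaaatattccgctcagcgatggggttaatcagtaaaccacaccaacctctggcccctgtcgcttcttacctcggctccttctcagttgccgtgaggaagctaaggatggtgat
Nr0b2: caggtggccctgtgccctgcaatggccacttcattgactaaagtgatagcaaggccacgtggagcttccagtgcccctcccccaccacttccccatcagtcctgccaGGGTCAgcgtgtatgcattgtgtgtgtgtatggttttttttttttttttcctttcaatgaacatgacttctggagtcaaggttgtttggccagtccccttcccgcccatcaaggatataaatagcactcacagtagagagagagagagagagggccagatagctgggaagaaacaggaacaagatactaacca
Rora: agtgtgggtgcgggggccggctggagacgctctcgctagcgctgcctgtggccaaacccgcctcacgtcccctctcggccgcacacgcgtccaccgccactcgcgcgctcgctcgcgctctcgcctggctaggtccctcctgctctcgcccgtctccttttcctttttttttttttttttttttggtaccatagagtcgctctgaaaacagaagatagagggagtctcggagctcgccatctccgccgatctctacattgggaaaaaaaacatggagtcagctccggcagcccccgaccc
Esrrg: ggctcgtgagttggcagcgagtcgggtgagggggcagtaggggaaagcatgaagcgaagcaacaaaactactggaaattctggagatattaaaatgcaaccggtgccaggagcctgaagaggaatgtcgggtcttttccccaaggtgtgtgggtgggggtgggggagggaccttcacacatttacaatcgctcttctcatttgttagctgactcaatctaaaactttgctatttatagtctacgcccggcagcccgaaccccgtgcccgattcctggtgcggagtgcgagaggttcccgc

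The *Nr1h4* window held 1 half-site, TGACCT, which reads AGGTCA on the opposite strand, 214 bases before the start, and the *Nr0b2* window held GGGTCA 143 bases before it. The *Rora* and *Esrrg* windows held none of these letters. Promoter windows were found for 30 of the 32 measured receptors. *Hnf4g* and *Nr5a1* had no entry. With the windows of *Nr1h2* and *Nr2e3* there were 46 windows in all, and 17 of them (37.0%) held at least 1 half-site, against 37.5% of 32851 mouse promoter windows. By motif, AGGTCA was found in 13.0% against 16.3%, GGGTCA in 19.6% against 13.7%, and AGTTCA in 15.2% against 14.0%. The direct repeat of AGGTCA with 1 base of any kind between the copies, to which PPARα and the retinoid X receptor bind as a pair and which overlaps the single half-site, occurred in 0 of the 46 windows and in 0.0396% of all windows. Such matches describe the letters of these windows only.

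Genes regulated by FXR and SHP were read from a list of 13, all measured. In *Ppara*-/- livers 2 were lower and 0 higher, where 3.82% of all genes were lower and 3.42% higher. Of the 13 differences 12 were negative, against 9268 of 19938 over all genes, and the list median was -0.23, against 0.01 over all genes. The lowered genes were *Abcb11*, the bile salt export pump, and *Sdc1*, syndecan-1. *Abcb11* read 11.01, 11.31 and 11.64 (lowest, median, highest) in *Ppara*-/- livers and 11.44, 11.72 and 11.92 in *Ppara*+/+ livers (difference -0.39, SE 0.10, adjusted p = 0.03). *Sdc1* differed by -0.36 (SE 0.08, adjusted p = 0.0157). The phospholipid transporter gene *Abcb4* (-0.26, adjusted p = 0.0592) and *Cyp7a1*, which encodes the rate-limiting enzyme of bile acid synthesis (-0.44, adjusted p = 0.077), did not pass. In *Abcb11* *Ppara*-/- mouse 1 (11.64) was above *Ppara*+/+ mice 5 (11.58) and 6 (11.44). The same held in *Abcb4* (11.13 against 11.07 and 10.94) and *Cyp7a1* (11.78 against 11.50 and 11.14). In *Sdc1* that liver (8.82) was above *Ppara*+/+ mouse 6 (8.74) but not mouse 5 (8.95). FXR is known to raise *Abcb11* and *Abcb4* and, through SHP, to lower *Cyp7a1*, so the list holds genes that the receptors regulate in opposite directions.

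Of 12 LXR-regulated sterol and lipid genes, 2 were lower and 1 higher, against 3.82% and 3.42% of all genes. The list median was -0.09. *Lpcat3*, which encodes an acyltransferase that puts polyunsaturated fatty acids into phospholipids, had all *Ppara*-/- livers (11.06 to 11.23) below all *Ppara*+/+ livers (11.47 to 11.65), a difference of -0.39 (SE 0.05, adjusted p = 1.4e-04). *Pltp*, for the phospholipid transfer protein, was lower by a smaller step (-0.22, SE 0.06, adjusted p = 0.033). *Abca1*, the cholesterol efflux pump, went the other way, with 11.10, 11.40 and 11.46 in *Ppara*-/- livers against 11.10, 11.14 and 11.24 in *Ppara*+/+ livers (0.21, SE 0.06, adjusted p = 0.0465). *Lpl*, lipoprotein lipase, did not pass (-0.13, adjusted p = 0.0557).

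**Figure D3:**
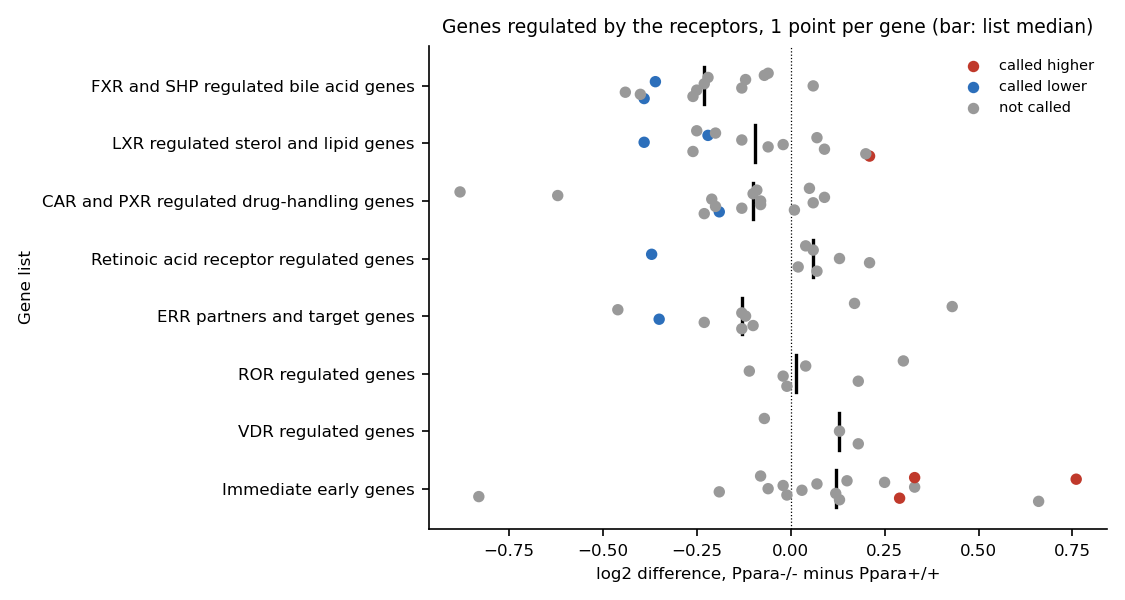
Genes of 8 receptor-related lists (y axis), 1 point per gene, by their log2 difference between *Ppara*-/- and *Ppara*+/+ livers (x axis, negative where lower in *Ppara*-/-), with the list median as a bar. Called genes are coloured: 2 lower in the FXR and SHP list, 2 lower and 1 higher in the LXR list, 1 lower in each of the CAR and PXR, retinoic acid and ERR lists, and 3 higher among the immediate early genes.

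The xenobiotic receptors PXR (*Nr1i2*) and CAR (*Nr1i3*) sense drugs and bilirubin and raise genes of detoxification, and the vitamin D receptor (*Vdr*) belongs to the same branch. None of the 3 was called. *Nr1i3* read 9.87, 9.25, 9.21, 8.96, 8.66 and 9.01 in *Ppara*-/- mice 1 to 6, against 10.09, 10.14, 10.02, 10.14, 9.59 and 9.05 in *Ppara*+/+ mice 1 to 6. As for *Nr0b2*, the exceptions were *Ppara*-/- mouse 1 on the high side and *Ppara*+/+ mice 5 and 6 on the low side. The difference was -0.68 (SE 0.21, adjusted p = 0.0613, limma), and it passed without *Ppara*-/- mouse 1 (adjusted p = 0.00965) or without *Ppara*+/+ mouse 6 (adjusted p = 0.00883). *Nr1i2* lay at the threshold, with a difference of -0.23 (SE 0.07, adjusted p = 0.0507), past it in 9 of the 25 alternative limma fits on 11 or 12 livers, among them those without *Ppara*-/- mouse 1 (adjusted p = 0.0487) or mouse 3 (0.0186) or *Ppara*+/+ mouse 6 (0.0409). *Vdr* differed by 0.04 (95% interval -0.11 to 0.19).

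Among 15 measured drug-handling genes under CAR and PXR, 1 was lower and 0 higher, against 3.82% and 3.42% of all genes. The list median was -0.10. *Abcc2*, which encodes a canalicular exporter of conjugates, was lower by 0.19 on the log2 scale in *Ppara*-/- livers (difference -0.19, SE 0.05, adjusted p = 0.0346). *Cyp3a11*, a monooxygenase gene that PXR induces, had a larger difference that did not pass (-0.62, SE 0.19, adjusted p = 0.0677). It read 8.95, 9.47 and 10.30 (lowest, median, highest) in *Ppara*-/- livers and 9.59, 10.26 and 10.38 in *Ppara*+/+ livers. Of the 5 listed vitamin D-regulated genes 3 were measured and 0 called.

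The retinoic acid receptors bind all-trans retinoic acid, and *Rarb* is itself induced by it in many tissues. *Rarb* read 7.65, 7.81 and 8.11 (lowest, median, highest) in *Ppara*-/- livers, against 7.97, 8.09 and 8.28 in *Ppara*+/+ livers. Of the *Ppara*-/- livers only mouse 1 reached into the *Ppara*+/+ range. *Ppara*+/+ mice 1 (8.02), 5 (7.97) and 6 (8.00) lay under that liver, within the *Ppara*-/- range. The difference was -0.29 (SE 0.08, adjusted p = 0.0377, limma). The call was lost when any 1 of *Ppara*-/- mice 2 to 6 or *Ppara*+/+ mice 1 to 4 was left out (adjusted p between 0.0536 and 0.0932), with the sex score as covariate (-0.26, adjusted p = 0.106), and with the animals split by number into 2 blocks of 6 (-0.24, adjusted p = 0.0937). The intervals of *Rara* (0.07, 95% interval -0.05 to 0.18) and *Rarg* (-0.02, -0.11 to 0.07) lay within 0.2 of 0. Of 7 measured genes under retinoic acid receptors, 1 was lower and 0 higher, against 3.82% and 3.42% of all genes. The lowered gene was *Rarres1* (-0.37, SE 0.08, adjusted p = 0.00807), named for its response to retinoic acid receptor ligands. *Rarres1* had the only negative difference of the 7, and the list median was 0.06. *Cyp26b1* (0.21, adjusted p = 0.182, limma) and *Dhrs3* (0.13, adjusted p = 0.229) had positive differences that did not pass.

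RORα, encoded by *Rora*, is an orphan receptor that activates the clock gene *Arntl* (Bmal1) in competition with the REV-ERB receptors. *Rora* read 9.53, 9.69 and 9.84 (lowest, median, highest) in *Ppara*-/- livers, against 9.26, 9.42 and 9.51 in *Ppara*+/+ livers. Every *Ppara*-/- liver was above every *Ppara*+/+ liver, with the gap set by *Ppara*-/- mouse 1 and *Ppara*+/+ mouse 4. The means were 9.69 ± 0.11 and 9.40 ± 0.10 (SD, n = 6 each), a difference of 0.29 (SE 0.06, adjusted p = 0.00911, limma). *Rorb*, best known from brain and retina, differed by -0.05 (95% interval -0.18 to 0.09). Of 6 measured ROR-regulated genes 0 were called, with a median of 0.02, and *Arntl* itself differed by -0.01 (SE 0.05, adjusted p = 0.939).

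The estrogen-related receptors are orphan receptors that work with the coactivator PGC-1α, encoded by *Ppargc1a*, on genes of mitochondrial respiration. *Esrrg* read 6.21, 6.39 and 6.53 (lowest, median, highest) in *Ppara*-/- livers, against 6.66, 6.71 and 6.84 in *Ppara*+/+ livers, which left a gap between the genotypes. Its means of 6.38 ± 0.14 and 6.72 ± 0.07 (SD, n = 6 each) differed by -0.34 (SE 0.06, adjusted p = 0.00415, limma). *Esrra*, the sister gene for ERRα, differed by 0.03 (95% interval -0.08 to 0.15), and *Esrrb*, known from embryonic stem cells, by 0.07 (-0.15 to 0.29).

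In the list of 9 measured ERR partners and target genes 1 was lower and 0 higher, against 3.82% and 3.42% of all genes. The list median was -0.13. The lowered gene was *Idh3a*, a subunit of the mitochondrial isocitrate dehydrogenase, which had 9.57, 9.68 and 9.74 in *Ppara*-/- livers and 9.92, 10.02 and 10.13 in *Ppara*+/+ livers (-0.35, SE 0.05, adjusted p = 2.7e-04). *Cycs*, for cytochrome c (-0.23, adjusted p = 0.0554), *Acadm*, for medium-chain acyl-CoA dehydrogenase (-0.13, adjusted p = 0.0952), and *Ppargc1a* (0.43, adjusted p = 0.0934) did not pass. Several genes of this list are regulated by PPARα as well.

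Among steroid receptors, *Nr3c2* encodes the mineralocorticoid receptor, which binds aldosterone and glucocorticoids. It read 5.74, 5.90 and 6.15 (lowest, median, highest) in *Ppara*-/- livers, against 6.00, 6.25 and 6.37 in *Ppara*+/+ livers. *Ppara*-/- mouse 1 and *Ppara*+/+ mice 5 and 6 lay in the overlap, as for *Nr1h3*. The difference of -0.29 (SE 0.08, adjusted p = 0.0374, limma) lost its call when any 1 of the same 8 livers was left out as for *Nr1h3* (adjusted p between 0.0766 and 0.0898), with the sex score as covariate (-0.24, adjusted p = 0.111), and with the 2 blocks of animal numbers (-0.21, adjusted p = 0.0583).

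The estrogen receptor gene *Esr1* lay between 6.28 and 6.91 in *Ppara*-/- livers, against 6.34 to 6.54 in *Ppara*+/+ livers. Its difference of 0.19 was not called (SE 0.09, adjusted p = 0.228), except without *Ppara*-/- mouse 6 (0.27, adjusted p = 0.0416). *Esr2* (0.03, 95% interval -0.17 to 0.23) and the progesterone receptor gene *Pgr* (-0.03, -0.29 to 0.22) were not called either.

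The NR4A receptors act without a known physiological ligand and are induced within minutes to hours by stress and hormone signals. *Nr4a1* (-0.00, 95% interval -0.23 to 0.23), *Nr4a2* (0.03, -0.12 to 0.19) and *Nr4a3* (0.06, -0.04 to 0.16) were not called. Of 17 other immediate early genes, 3 were higher and 0 lower, against 3.42% and 3.82% of all genes, with a median of 0.12 and 6 negative differences. The higher genes were the growth regulator *Myc* (0.33, SE 0.08, adjusted p = 0.0157), the small MAF factor gene *Maff* (0.76, SE 0.19, adjusted p = 0.0278) and the MAP kinase phosphatase gene *Dusp1* (0.29, SE 0.08, adjusted p = 0.0398). *Maff* read 7.89 at the median in *Ppara*-/- livers and 6.90 in *Ppara*+/+ livers. Its lowest *Ppara*-/- value, 6.87 in mouse 1, lay within the *Ppara*+/+ range of 6.69 to 7.44. *Jund*, a subunit of the AP-1 factor, did not pass (0.25, adjusted p = 0.0604), and neither did the zinc finger gene *Egr1*, whose difference was the largest in size of the list and negative (-0.83, SE 0.36, adjusted p = 0.196).

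The testicular receptor genes *Nr2c1* and *Nr2c2* encode partners that silence embryonic globin genes in erythroid cells. *Nr2c1* read 8.54, 8.95, 8.92, 8.95, 8.89 and 8.98 in *Ppara*-/- mice 1 to 6, against 8.51, 8.67 and 8.74 (lowest, median, highest) in *Ppara*+/+ livers. All *Ppara*-/- livers but mouse 1 lay above all *Ppara*+/+ livers. The difference of 0.22 (SE 0.07, adjusted p = 0.0844, limma) passed without that liver (0.28, adjusted p = 0.00155). *Nr2c2* differed by -0.04 (95% interval -0.16 to 0.07). The 7 measured erythroid markers averaged 11.29 to 11.45 in *Ppara*-/- livers and 11.18 to 11.44 in *Ppara*+/+ livers, with 0 called.

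The COUP transcription factor II, encoded by *Nr2f2*, sets vein identity in endothelium and is also made in mesenchyme. *Nr2f2* read 8.31, 8.38 and 8.49 in *Ppara*-/- livers and 8.37, 8.63 and 8.70 in *Ppara*+/+ livers. The difference of -0.19 was not called (SE 0.06, adjusted p = 0.0647), except without *Ppara*-/- mouse 1 (adjusted p = 0.0356) or *Ppara*+/+ mouse 6 (adjusted p = 0.0122), among the fits that left out a liver. All 7 endothelial markers had negative differences, none called, and averaged 9.31 to 9.43 in *Ppara*-/- livers and 9.28 to 9.55 in *Ppara*+/+ livers, and their part in the result was not tested. The related *Nr2f1* (-0.10, 95% interval -0.24 to 0.03) and *Nr2f6* (-0.09, -0.20 to 0.02) were not called.

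The liver receptor homolog LRH-1, encoded by *Nr5a2*, sustains bile acid synthesis and is held down by SHP. It read 9.07, 9.16 and 9.22 in *Ppara*-/- livers and 8.95, 9.08 and 9.18 in *Ppara*+/+ livers, a difference of 0.07 (95% interval -0.03 to 0.17, adjusted p = 0.413). *Nr6a1*, for the germ cell nuclear factor, which silences pluripotency genes in early embryos, differed by -0.12 (SE 0.05, adjusted p = 0.205).

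Several receptors listed are best known outside the liver. They are *Nr5a1* and *Nr0b1*, of adrenal and gonad, *Nr2e1*, of neural stem cells, and *Hnf4g*, of intestine and kidney. Their differences were -0.02 (95% interval -0.22 to 0.18) for *Nr5a1*, 0.03 (-0.19 to 0.25) for *Nr0b1*, 0.02 (-0.18 to 0.21) for *Nr2e1* and 0.06 (-0.08 to 0.20) for *Hnf4g*, with none called. The mean signal of 8 of the 32 receptors lay under the 25th percentile of all genes, a range in which array signal may hold little transcript, so that a small difference there does not show an unaffected gene. Of the 32 receptors 23 had a 95% interval within 1.3-fold of no difference.

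**Figure D4:**
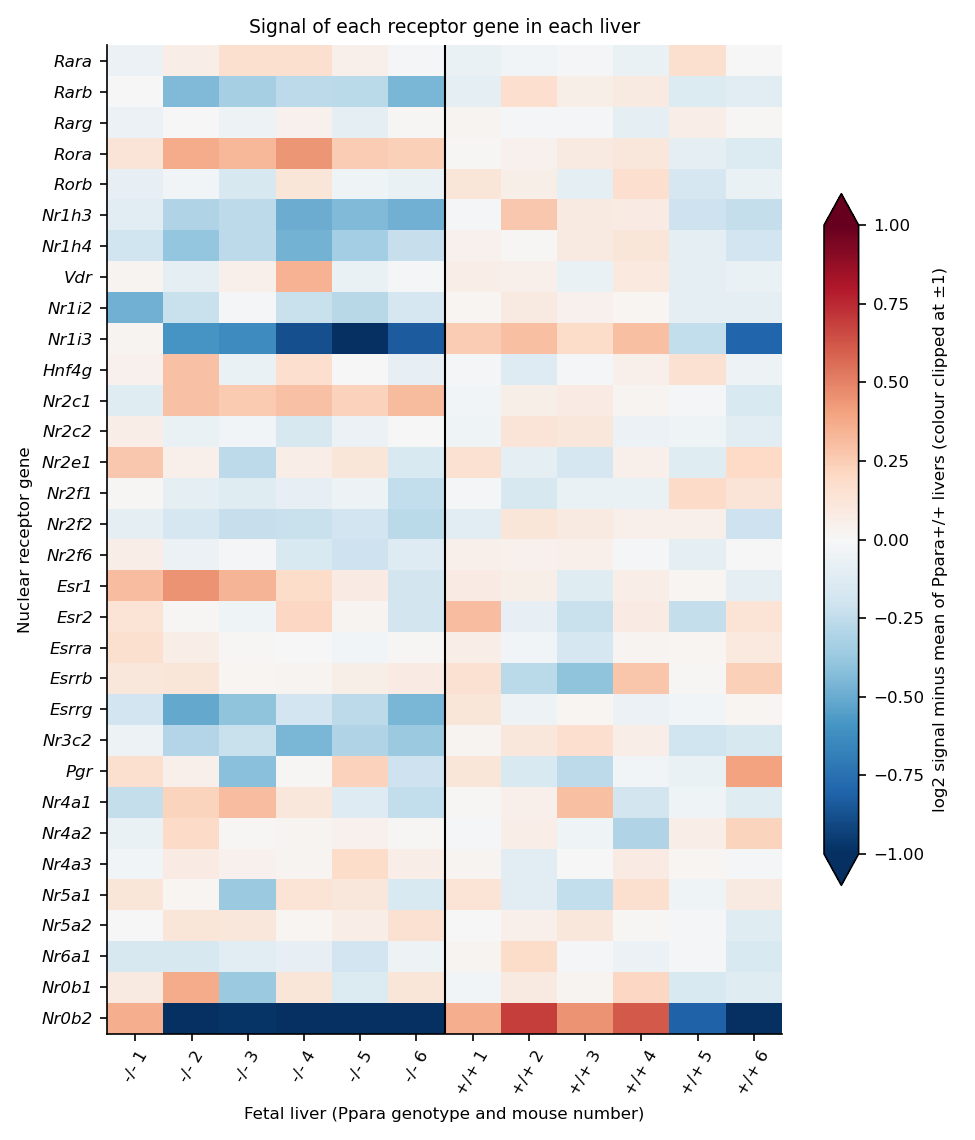
Log2 signal of 32 receptor genes (rows) in each liver (columns, *Ppara*-/- mice 1 to 6 left, *Ppara*+/+ mice 1 to 6 right) minus the mean of the *Ppara*+/+ livers, with colour clipped at 1 in either direction. *Nr0b2* and *Nr1i3* vary over the widest range, and in both *Ppara*-/- mouse 1 resembles the *Ppara*+/+ livers while *Ppara*+/+ mouse 6 resembles the *Ppara*-/- livers.

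The order of the animal numbers moved with several receptors, including those that did not pass the test. When the 5 livers with the lowest numbers (*Ppara*-/- mouse 1 and *Ppara*+/+ mice 1 to 4) were set beside the 7 with higher numbers, a split chosen after the values were seen and therefore not tested, 5 receptor genes were higher in every low-numbered liver and *Rara* lower or equal. The share of all genes that this split separates is not given here, so the count is not read as particular to receptors. The ranges were 8.49 to 8.82 against 6.09 to 7.32 for *Nr0b2*, and 9.87 to 10.14 against 8.66 to 9.59 for *Nr1i3*. *Nr1h3* ranged from 8.71 to 9.09 against 8.32 to 8.61, *Nr3c2* from 6.15 to 6.37 against 5.74 to 6.04, and *Rarb* from 8.02 to 8.28 against 7.65 to 8.00. *Nr1h4*, *Esrrg* and *Rora* were not separated by this order. Even so, in *Nr1h4* *Ppara*-/- mouse 1 was the highest of its genotype and *Ppara*+/+ mice 5 and 6 the lowest of theirs. What the number stands for is not given in the labels, and it is unevenly spread over the genotypes. It is unevenly spread over sex as well, since the males were *Ppara*-/- mouse 2 and *Ppara*+/+ mice 2 to 4. Number, sex and genotype cannot be fully told apart. With the animal number as a covariate *Nr0b2* (-0.97, adjusted p = 0.013) and *Nr1i3* (-0.61, adjusted p = 0.00309) passed the threshold. With the 6 lowest and the 6 highest numbers as separate blocks neither was called, with differences of -0.68 for *Nr0b2* (adjusted p = 0.195) and -0.45 for *Nr1i3* (adjusted p = 0.0591). These blocks also ended the calls of *Nr3c2* and *Rarb* but not that of *Nr1h3* (-0.25, adjusted p = 0.0412). Within the 6 lowest numbers alone (*Ppara*-/- mice 1 and 2 against *Ppara*+/+ mice 1 to 4) and then the 6 highest alone (*Ppara*-/- mice 3 to 6 against *Ppara*+/+ mice 5 and 6) the differences were -0.36 and -0.32 for *Esrrg*, -0.36 and -0.18 for *Nr1h4*, and 0.19 and 0.43 for *Rora*. They were -0.31 and -0.20 for *Nr1h3*, -0.27 and -0.16 for *Nr3c2*, and -0.28 and -0.20 for *Rarb*. Each of the 6 kept its direction in both, and among the receptors only *Rora*, in the 6 highest numbers, was called at this size. These livers are part of those on which the 6 genes were called, so a kept direction is not separate evidence.

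**Figure D5:**
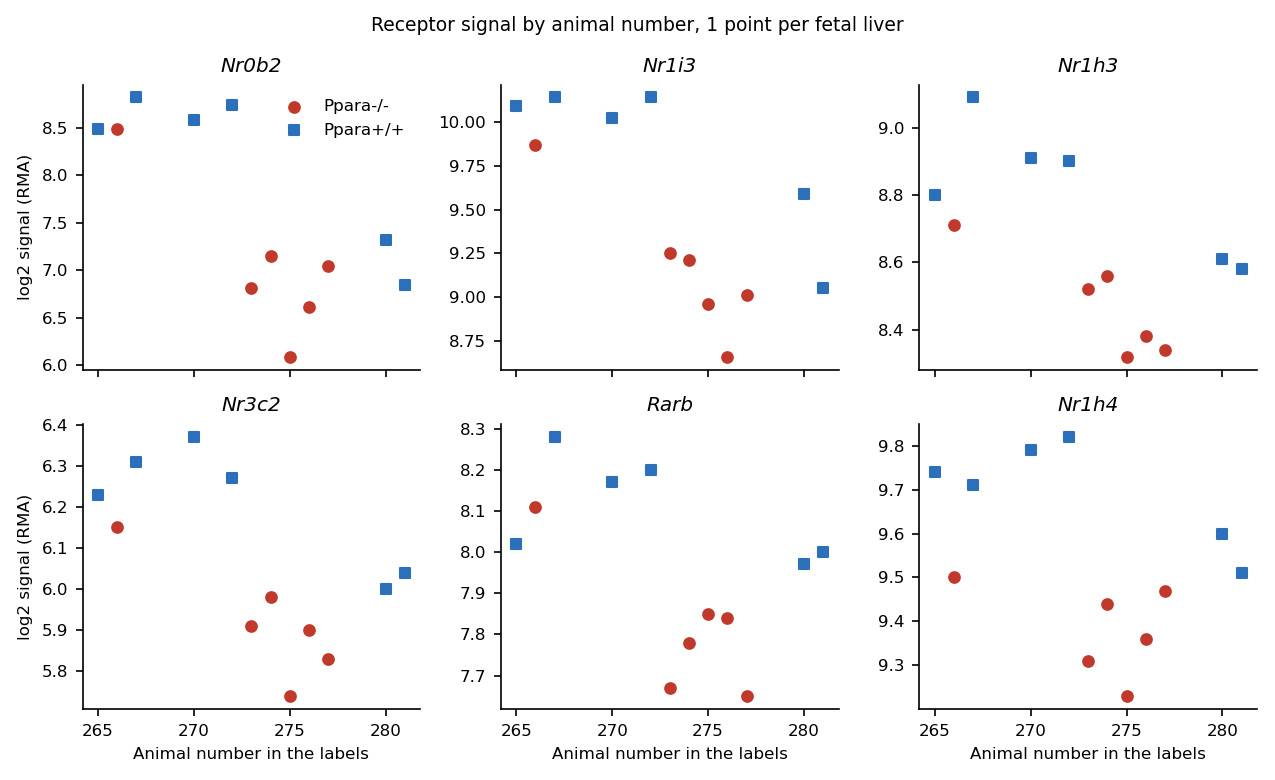
Log2 signal (y axis, its own scale in each panel) of 6 receptor genes against the animal number in the labels (x axis), 1 point per liver, circles for *Ppara*-/- and squares for *Ppara*+/+. *Nr0b2*, *Nr1i3*, *Nr1h3*, *Nr3c2* and *Rarb* are higher in all of the 5 lowest-numbered livers than in the other 7. In *Nr1h4* the genotypes do not overlap, but only narrowly, with 9.50 in *Ppara*-/- mouse 1 and 9.51 in *Ppara*+/+ mouse 6. There too *Ppara*-/- mouse 1 is the highest of its genotype, and *Ppara*+/+ mice 5 (9.60) and 6 are the lowest of theirs.

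The calls thus fell into a firmer and a weaker set. *Esrrg* passed in 24 of 24 alternative limma fits on 11 or 12 livers (adjusted p between 0.0013 and 0.0127), and *Nr1h4* (0.00174 to 0.0296) and *Rora* (0.00221 to 0.028) in 25 of 25. *Nr1h3* passed in 15 of 25, *Nr3c2* in 13 of 24 and *Rarb* in 12 of 25. Direction was kept for each of the 6 in all of these fits, which reuse the livers that gave the calls and so are not separate evidence.

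The remaining 15 mouse nuclear receptor genes, of which 13 were measured, held 1 lower gene, the targeted *Ppara*, and 2 higher ones. Over all genes 3.82% were lower and 3.42% higher. *Nr3c1*, for the glucocorticoid receptor, read 9.57, 9.88 and 9.95 (lowest, median, highest) in *Ppara*-/- livers against 9.48, 9.56 and 9.61 in *Ppara*+/+ livers (0.30, SE 0.06, adjusted p = 0.00826). *Pparg*, the adipogenic paralog of *Ppara*, differed by 0.33 (SE 0.08, adjusted p = 0.0209). The common heterodimer partners *Rxra* (-0.02) and *Rxrb* (0.06) were not called.

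Markers of other liver cells were read by list, where 3.82% of all genes were lower and 3.42% higher. Of 7 macrophage and Kupffer cell markers 2 were higher in *Ppara*-/- livers, *Csf1r* (0.23, SE 0.05, adjusted p = 0.00964) and *Cd5l* (0.40, SE 0.11, adjusted p = 0.0413). Of the other 5, *Cd68* (0.20) and *Marco* (0.14) had positive and *Vsig4* (-0.25), *Clec4f* (-0.11) and *Adgre1* (-0.03) negative differences, none called. *Cd5l*, like *Nr1h3*, is prominent in macrophages, and the 7 markers averaged 9.01 to 9.20 in *Ppara*-/- livers and 8.96 to 9.11 in *Ppara*+/+ livers. Of 9 stellate and mesenchymal markers, which also mark cells that hold retinoids, *Des* was lower (-0.39, adjusted p = 0.0179) and *Reln* higher (0.16, adjusted p = 0.0335), with list averages of 8.89 to 9.06 in *Ppara*-/- livers and 8.84 to 9.18 in *Ppara*+/+ livers. *Dlk1*, a hepatoblast marker, was higher (0.42, adjusted p = 0.033), as 1 of 5 biliary and hepatoblast markers. The other 4, *Sox9*, *Krt19*, *Krt7* and *Epcam*, differed by -0.19 to -0.03 with none called, and the average of the 5 was 7.79 to 8.00 in *Ppara*-/- livers and 7.73 to 7.97 in *Ppara*+/+ livers. Of 8 granulocyte and 5 megakaryocyte markers 0 were called. Their part in the receptor results was not tested, except that with the erythroid score as a covariate *Nr1h4* and *Esrrg* were called lower and *Rora* higher. With it the differences of *Nr1h3* (-0.34), *Nr3c2* (-0.30) and *Rarb* (-0.28) stayed within 0.02 of those without it, while their adjusted p-values (0.057, 0.0527 and 0.0701) passed to the other side of 0.05.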

How the data were processed

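Total RNA of 12 whole fetal livers, selected above an RNA integrity number of 8, was hybridized to Affymetrix Mouse Gene ST arrays, 1 liver per array. Values were deposited by the authors on the log2 scale after RMA, which corrects background, normalizes between arrays and summarises probes per probeset. For RMA no version, and for the probes no genome build, is given in the sources used here. The table held 35556 probesets, with array medians of 6.71 to 6.75. Arrays carry no read depth, and their number limits the precision.

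Probesets were named through the platform's probe table. Of these, 21789 carried 1 symbol, 1621 several and 12146 none, and 21698 matched RefSeq genes of GRCm38.p6 by gene ID. The probeset with the highest mean was taken per gene and dim signals were kept.

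Groups follow the genotype label of each sample. Whether same-numbered mice are littermates is not given. Differences (*Ppara*-/- minus *Ppara*+/+) were tested two-sided in all 19938 genes in limma 3.58.1 (lmFit, eBayes) under R 4.3.3 without covariates, and Benjamini-Hochberg adjusted at 0.05. A procedure check was run on simulated arrays. Python 3.11.15 with pandas 2.3.3 and matplotlib 3.10.9 made tables and plots. Alternatives were renewed quantile normalization, a median shift, leaving out genes dimmer than the 25th or the 50th percentile, other probeset choices, an intensity trend with robust settings, array weights, mouse number as a block, sex, erythroid and animal number covariates, the 6 lower and 6 higher animal numbers as 2 blocks and each alone, the exact Mann-Whitney test that the methods name, and leaving out each liver.

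The receptors and lists were chosen with earlier results of these data known, so none is independent evidence. All listed receptors were named, and up to 4 genes per regulated list by smallest p. Exceptions were *Arntl*, named for its link to RORα, and *Egr1*, named for the size of its difference.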

Additional observations from a re-analysis of the deposited data

Results flagged for a closer look

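In 13 of 134 groups of 6 livers (67 genes checked in both genotypes), 1 liver stood apart from the other 5 by a share of the whole range above Dixon's critical value, which chance passes in about 1 of 20 groups. The genes checked share livers, so these are not independent. *Ppara*-/- mouse 1 was the liver concerned in 8 of them. It was low for *Nr2c1* (8.54, against 8.89 to 8.98 in the other *Ppara*-/- livers), *Nr3c1* (9.57, against 9.87 to 9.95), *Abca1* (11.10, against 11.37 to 11.46), *Dhrs3* (10.26, against 10.52 to 10.59), *Maff* (6.87, against 7.80 to 8.23), *Ppargc1a* (9.30, against 9.99 to 10.18) and *Nfil3* (7.95, against 8.47 to 8.68). It was high for *Cyp7a1* (11.78, against 10.91 to 11.16).

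Among the remaining livers, *Ppara*-/- mouse 4 was high for *Vdr* (5.24, against 4.79 to 4.94). *Ppara*+/+ mouse 5 was high for *Rara* (7.79, against 7.56 to 7.63 in the other *Ppara*+/+ livers) and low for *Nr2f6* (8.24, against 8.33 to 8.39). *Ppara*+/+ mouse 6 was low for *Cyp3a11* (9.59, against 10.20 to 10.38), and *Ppara*+/+ mouse 3 was low for *Calb1* (3.46, against 3.68 to 3.79).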

How the results depend on the processing

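The count of receptors lower in *Ppara*-/- livers, 5 in the comparison reported, was 9 with array weights, 8 without genes under the 25th percentile of mean signal, 3 with the lower and higher 6 animal numbers as a block, 2 with the sex score or the erythroid score, 0 within the 6 lowest or 6 highest animal numbers alone, and 0 by the exact Mann-Whitney test. With 1 liver left out it ranged from 2 to 9: leaving out *Ppara*-/- mouse 1 gave 9, as did *Ppara*+/+ mouse 6, and leaving out any one of *Ppara*-/- mice 2, 4, 5 and 6 and *Ppara*+/+ mice 1 to 4 gave 2. The count of higher receptors, 1, was 2 with array weights, renewed quantile normalization or the 50th percentile filter, 0 in the 6 lowest numbers alone and by the Mann-Whitney test, and 1 to 2 with a liver left out (2 without *Ppara*-/- mouse 1 or 6). Over all genes 1443 calls became 223 in the 6 highest and 193 in the 6 lowest numbers alone, 936 with this block, 2743 with array weights, 850 with the sex score, 0 by the Mann-Whitney test and 851 to 2521 with a liver left out (2521 without *Ppara*-/- mouse 1, 860, 871, 851 and 880 without mice 2, 4, 5 and 6, and 959, 898, 954 and 954 without *Ppara*+/+ mice 1 to 4). The Mann-Whitney test gave 3681 genes (18.5%) and 12 receptors an unadjusted p under 0.05, but its smallest adjusted p was 0.0603. With 6 livers per genotype this exact test cannot give an unadjusted p under 0.00216. *Esrrg*, *Nr1h4* and *Rora* had that least value, so its 0 calls decide nothing about these genes. Comparisons within 6 animal numbers hold fewer livers. For the other settings the cause was not tested. Same-numbered livers of the genotypes share only a number (correlations of their deviations 0.02 to 0.39, and 3 of 6 *Ppara*-/- livers correlated best with their own number). With that number as a block 1619 genes, 5 receptors lower and 1 higher were called, *Rarb* without a call (adjusted p = 0.0588) and *Nr1i3* with one (0.0182).

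Sign changes occurred in 14 receptors, none of them called. The largest of their reported differences in size was -0.103, for *Nr2f1*. In the 6 highest numbers alone these were *Esrra* (-0.0621), *Esrrb* (-0.077), *Hnf4g* (-0.0452), *Nr2c2* (0.00872), *Nr2e1* (-0.0946), *Nr4a1* (0.0891), *Nr4a2* (-0.122) and *Rorb* (0.08), and in the 6 lowest *Nr2f1* (0.0273), *Nr5a1* (0.0846), *Pgr* (0.184) and *Vdr* (-0.0694). With the sex score they were *Esr2* (-0.00618), *Nr2e1* (-0.0138) and *Nr4a1* (0.0565), with the erythroid score *Nr4a2* (-0.00239) and *Nr5a1* (0.00515), with array weights *Pgr* (0.0218) and *Vdr* (-0.000136), and for *Nr4a1* with animal number as covariate (0.0048) or the block of its 6 lowest and 6 highest values (0.0172). With 1 liver left out the values ranged from -0.0188 to 0.0922 for *Esr2*, -8.51e-05 to 0.0542 for *Esrra*, -0.0113 to 0.125 for *Esrrb*, -0.0382 to 0.109 for *Nr0b1*, -0.0355 to 0.0708 for *Nr2e1*, -0.061 to 0.0585 for *Nr4a1*, -0.0244 to 0.078 for *Nr4a2*, -0.07 to 0.0489 for *Nr5a1*, -0.0847 to 0.0478 for *Pgr* and -0.0198 to 0.0692 for *Vdr*.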
